A study of Arabidopsis thaliana with 9 samples.

Results

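The WRKY genes encode plant transcription factors, and the values of the 7 that could be read in whole roots of Arabidopsis thaliana are described here across a jet flight with a short microgravity phase. The members were the named genes whose symbol is WRKY followed by a number, each read from a probe set that lists that gene alone. They were 7 of the 16550 genes tested. The gene table holds 67 such symbols, and the other 60 were not analysed here. The 7 were WRKY6 (AT1G62300), WRKY20 (AT4G26640), WRKY22 (AT4G01250), WRKY29 (AT4G23550), WRKY41 (AT4G11070), WRKY42 (AT4G04450) and WRKY47 (AT4G01720), and each had 1 probe set. Of their locus tags, 6 begin with AT4G and 1 with AT1G, whereas 16 of the 67 WRKY symbols in the gene table have a tag beginning with AT4G, so these genes are not an even sample of the family.

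All roots came from 10-day-old seedlings of the Wassilewskija cultivar, grown in continuous light, of the genotype pCaMV35S:14-3-3κ:GFP, in which a viral promoter active in most cells drives a fluorescent 14-3-3 fusion protein. 14-3-3 proteins bind phosphorylated client proteins, and the groups, ground control included, all carried this transgene. The ground tube did not fly and was actuated while flight 2 was under way. The first-actuated tube released the fixative RNAlater in flight straight after microgravity, and the last-actuated tube did so after about 1.5 min of level flight. Before microgravity, which lasted about 10 s, the jet had climbed for roughly 30 s at 4 g, and the pull-up that followed was again above normal gravity. With 3 replicates from each of the 3 tubes there were 9 arrays. Since replicates of a condition shared 1 tube, the effects of tube and of condition cannot be told apart. Every p-value measures the spread within a tube.

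WRKY factors bind the W-box of target promoters through a zinc finger domain, and many of their genes are themselves switched on within minutes by microbial patterns, wounding and other stresses. The family is divided by the number of WRKY domains and the form of the zinc finger. WRKY20 belongs to subgroup I, WRKY6, WRKY42 and WRKY47 to subgroup IIb, WRKY22 and WRKY29 to subgroup IIe and WRKY41 to subgroup III. In roots, WRKY6 and WRKY42 are known as regulators of the phosphate exporter gene PHO1, and WRKY22 and WRKY29 act downstream of the MAP kinase cascade that flagellin sets off.

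The arrays were not equally alike within tubes. Pearson correlations across genes, which are not independent replicates, were 0.976 to 0.984 between ground arrays, 0.990 to 0.991 between first-actuated arrays and 0.984 to 0.989 between last-actuated arrays. Ground replicate 1 lay at -38.6, ground replicate 3 at -24.7 and ground replicate 2 at -5.05 on the first principal component (36.4% of the variance), while the last-actuated arrays lay at 0.68 to 3.54 and the first-actuated arrays at 19.8 to 21.8. Of 6 listed root markers 1 was measured, PYK10, a beta-glucosidase of root endoplasmic reticulum bodies. It had log2 levels of 11.39 to 11.73 in the ground tube, 11.27 to 11.33 in the first-actuated tube and 11.09 to 11.20 in the last-actuated tube, which do not overlap. Of all genes, 18.4% did not overlap in first-actuated against ground roots, 12.7% in last-actuated against ground roots and 18.1% between the flight tubes. PYK10 was not called in any comparison, and was at an unadjusted p under 0.05 in last-actuated against ground roots (log2 difference -0.40, limma adjusted p = 0.148). Its part in the WRKY values was not tested. Of 7 listed shoot and leaf markers 3 were measured and none was called in any comparison by limma, with 0 at an unadjusted p under 0.05. Their summed level, as a log2 value, was 6.92 to 7.22 in the ground tube, 6.93 to 7.11 in the first-actuated tube and 6.86 to 6.91 in the last-actuated tube. The last-actuated range lay below both other ranges. Between the flight tubes the log2 difference was -0.25 for RCA, the marker of highest level (limma adjusted p = 0.412). It was 0.068 for LHCB4.1 and 0.11 for FAMA. The part of shoot or leaf tissue in the WRKY values was not tested.

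No WRKY gene differed between any pair of tubes past the threshold, which was a Benjamini-Hochberg adjusted p under 0.05 over the 16550 genes in limma. The count was 0 of 7 for first-actuated against ground roots, where 4.69% of all genes were called. It was 0 of 7 for last-actuated against ground roots (0.912% of all genes) and 0 of 7 for last-actuated against first-actuated roots (2.24%). The moderated F test of limma over the 3 tubes also called 0 of 7, with 4.45% of all genes called. At an unadjusted p under 0.05 there were 4 of 7 in the first comparison (16.9% of all genes), 0 of 7 in the second (12.4%) and 3 of 7 in the third (13.4%). Without each array in turn these unadjusted counts ran from 1 to 4, from 0 to 3 and from 1 to 5. Ground replicate 1 decided the second, which was 3 without it and 0 without any other array, and without it the third was 5. Without first-actuated replicate 3 the first and the third were 1 each. Leaving out first-actuated replicate 1 also gave 1 in the first, and leaving out replicate 3 of the ground or of the last-actuated tube gave 2.

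**Figure D1:**
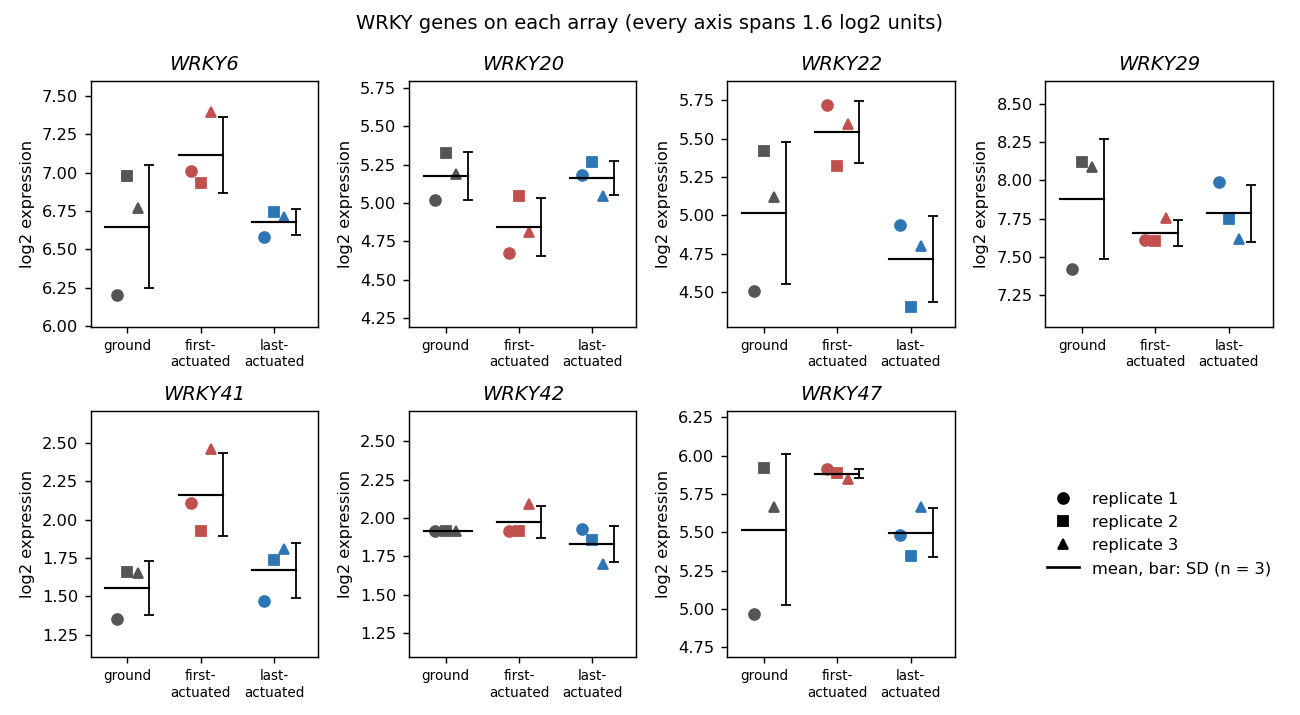
Normalized log2 expression (y axis, each spanning 1.6 units) of the 7 WRKY genes in the ground, first-actuated and last-actuated tubes (x axis). Symbols are arrays, lines are means and bars are SDs (n = 3). WRKY41 shows 3 first-actuated arrays above all ground arrays, and ground replicate 1 is the lowest ground array in every panel but that of WRKY42.

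WRKY41, which acts in defence against bacteria and in seed dormancy, had the smallest adjusted p among the members in the comparison of roots fixed right after microgravity with ground roots. Its log2 levels on ground replicates 1, 2 and 3 were 1.35, 1.66 and 1.65. On the first-actuated arrays they were 2.11, 1.93 and 2.46, and on the last-actuated arrays 1.47, 1.73 and 1.81. All first-actuated arrays lay above all ground arrays and above all last-actuated arrays, whereas the ground and last-actuated arrays overlapped. The means were 2.16 ± 0.27 (SD, n = 3) in the first-actuated tube and 1.56 ± 0.17 in the ground tube, a log2 difference of 0.61 (95% interval 0.25 to 0.96, limma adjusted p = 0.0639). Over the fits that leave out an array, it ran from 0.46, without first-actuated replicate 3, to 0.73. Limma adjusted p in these fits ran from 0.0648 to 0.208. The difference from the first-actuated to the last-actuated tube was -0.49 (95% interval -0.85 to -0.14, adjusted p = 0.178), and that from the ground to the last-actuated tube was 0.12 (adjusted p = 0.825). The mean of WRKY41 over the 9 arrays, 1.80, was below the median of 2.15 over all gene means. Without detection calls such a level cannot be placed above background, and the size of its differences is uncertain.

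WRKY22, which is also known in leaf senescence and in immunity under submergence, differed most between the flight tubes. Its log2 levels were 4.51, 5.42 and 5.12 on ground replicates 1, 2 and 3. On the first-actuated arrays they were 5.72, 5.32 and 5.60, and on the last-actuated arrays 4.94, 4.40 and 4.80. All last-actuated arrays lay below all first-actuated arrays, and the ground arrays spread across both. The mean was 4.71 ± 0.28 (SD, n = 3) after level flight against 5.55 ± 0.20 right after microgravity, a log2 difference of -0.83 (95% interval -1.34 to -0.32, limma adjusted p = 0.109). Ground arrays enter this difference only through its error, and without ground replicate 1 it passed the threshold (adjusted p = 0.0374). Over the fits that leave out an array, the difference ran from -0.94 to -0.68, with limma adjusted p from 0.0374 to 0.302. Against the ground mean of 5.01 ± 0.46, the first-actuated tube differed by 0.53 (adjusted p = 0.272) and the last-actuated tube by -0.30 (adjusted p = 0.657). Without ground replicate 1 these were 0.28 and -0.55, and the latter was -0.099 without ground replicate 2 and -0.14 without last-actuated replicate 2.

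WRKY29, the other member of subgroup IIe, had no such ordering. Its log2 levels were 7.43, 8.12 and 8.09 on ground replicates 1, 2 and 3. They were 7.61, 7.61 and 7.75 on the first-actuated arrays and 7.99, 7.75 and 7.62 on the last-actuated arrays. Every pair of tubes overlapped. The ground mean was 7.88 ± 0.39 (SD, n = 3), and the log2 differences from it were -0.22 for the first-actuated tube (95% interval -0.63 to 0.19, limma adjusted p = 0.623) and -0.092 for the last-actuated tube (-0.50 to 0.32, adjusted p = 0.888). Without ground replicate 1 these were -0.45 (adjusted p = 0.122) and -0.32 (adjusted p = 0.412). Without ground replicate 2 they were -0.10 and 0.029, and without ground replicate 3 -0.12 and 0.012.

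Of the subgroup IIb genes, WRKY6, known for its part in senescence, defence and phosphate supply, read 6.20, 6.98 and 6.77 on ground replicates 1, 2 and 3. It read 7.01, 6.93 and 7.40 on the first-actuated arrays and 6.58, 6.74 and 6.71 on the last-actuated arrays. The first-actuated arrays all exceeded the last-actuated ones, while ground replicate 2 reached into the first-actuated range. The first-actuated mean of 7.11 ± 0.25 (SD, n = 3) was 0.46 above the ground mean of 6.65 ± 0.40 on the log2 scale (95% interval 0.029 to 0.90, limma adjusted p = 0.258), and 0.24 above it without ground replicate 1 (adjusted p = 0.562). The last-actuated mean of 6.68 ± 0.084 differed from the first-actuated mean by -0.43 (adjusted p = 0.375) and from the ground mean by 0.030 (95% interval -0.40 to 0.47, adjusted p = 0.972).

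WRKY47, reported to act in aluminium tolerance through cell wall genes, had log2 levels of 4.97, 5.92 and 5.66 on ground replicates 1, 2 and 3. Its first-actuated values were 5.91, 5.88 and 5.85, the narrowest spread of any member in that tube, and its last-actuated values were 5.48, 5.35 and 5.66. Ground replicate 3 and last-actuated replicate 3 shared every deposited digit. Again the flight tubes did not overlap, and the ground arrays spanned both. The log2 difference was 0.37 between first-actuated and ground roots (95% interval -0.099 to 0.83, limma adjusted p = 0.439) and -0.39 between last-actuated and first-actuated roots (-0.85 to 0.079, adjusted p = 0.487). The former difference was 0.090 when ground replicate 1 was left out and 0.57 when ground replicate 2 was. The ground SD of 0.49 stood against 0.031 in the first-actuated tube and 0.16 in the last-actuated tube (n = 3 each).

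WRKY42, which represses PHO1 and activates the phosphate uptake gene PHT1;1, had the identical log2 value of 1.92 on all 3 ground arrays and on first-actuated replicates 1 and 2. First-actuated replicate 3 was at 2.09 and the last-actuated arrays were at 1.93, 1.86 and 1.70. These 5 arrays shared every deposited digit, so the ground SD of 0 is not a measure of replicate spread. Among the genes tested, 9.53% had 1 value on 5 or more of the 9 arrays. An equal value on some pair of arrays occurred in 3 of the 7 members. The log2 differences of WRKY42 were 0.060 for first-actuated against ground roots (limma adjusted p = 0.843), -0.086 for last-actuated against ground roots (0.790) and -0.15 for last-actuated against first-actuated roots (0.615). Its mean level of 1.91 was below that median of 2.15.

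WRKY20, the member of subgroup I, ran the other way in the first-actuated tube. Its log2 levels were 5.02, 5.33 and 5.19 on ground replicates 1, 2 and 3, 4.68, 5.05 and 4.81 on the first-actuated arrays, and 5.18, 5.26 and 5.05 on the last-actuated arrays. First-actuated replicates 1 and 3 lay below all other arrays, and replicate 2 lay within the ground range. It shared every deposited digit with last-actuated replicate 3, so the overlap of the flight tubes rests on that tie. The first-actuated mean of 4.85 ± 0.19 (SD, n = 3) lay below the ground mean of 5.18 ± 0.16 by a log2 difference of -0.33 (95% interval -0.62 to -0.044, limma adjusted p = 0.217). The last-actuated mean of 5.17 ± 0.11 was 0.32 above the first-actuated mean (adjusted p = 0.308) and differed from the ground mean by -0.012 (95% interval -0.30 to 0.28, adjusted p = 0.984).

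**Figure D2:**
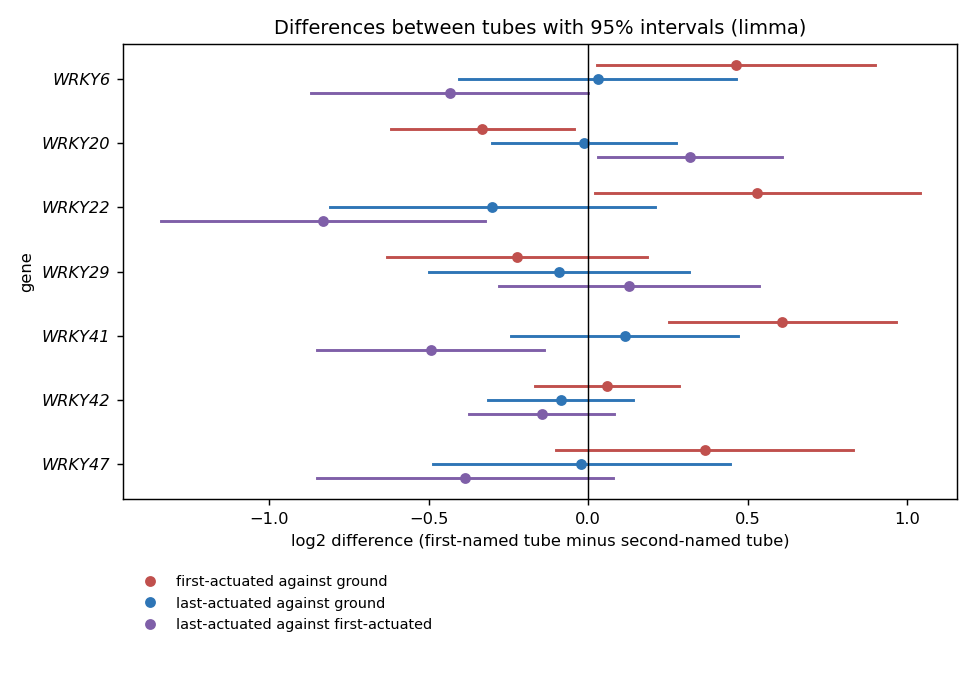
Log2 difference between tubes (x axis, the first-named tube minus the other) for each WRKY gene (y axis). Points are limma estimates and lines are 95% intervals, not adjusted for the number of genes. The last-actuated against ground intervals all cross 0, and the longest shift is that of WRKY22 between the flight tubes, at -0.83.

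Across the members, first-actuated roots had higher levels than ground roots for 5 of 7 genes and lower levels for WRKY20 and WRKY29. Of all genes, 52.4% were higher there. The median log2 difference was 0.37, against 0.0098 over all genes. The higher level of WRKY42 rested on first-actuated replicate 3, and without that array 4 of 7 genes were higher. In last-actuated against ground roots, 2 of 7 were higher, as were 55.7% of all genes, and the median was -0.021 (0.026 over all genes). Leaving out ground replicate 2 made it 5 higher members, leaving out ground replicate 3 made it 4, leaving out ground replicate 1 made it 1, and leaving out last-actuated replicate 3 made it 3. In last-actuated against first-actuated roots 2 of 7 were higher (52.6% of all genes), with a median of -0.39 (0.011 over all genes). Both the first and the third of these comparisons use the first-actuated arrays, so their opposite medians are not separate observations. Without each array in turn the medians ran from 0.090 to 0.57, from -0.19 to 0.063 and from -0.45 to -0.29. The value of 0.090 came without ground replicate 1 and that of 0.57 without ground replicate 2.

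The tubes did not overlap for 1 of 7 genes in first-actuated against ground roots, namely WRKY41, where 18.4% of all genes had tubes that did not overlap. The count was 0 of 7 in last-actuated against ground roots (12.7% of all genes). It was 4 of 7 in last-actuated against first-actuated roots, namely WRKY6, WRKY22, WRKY41 and WRKY47, against 18.1% of all genes, and each of the 4 was lower after level flight. Leaving out an array can only keep or raise such a count, so the counts that follow are no measure of its stability. Without each array in turn the count between the flight tubes was 4 or 5, and that of first-actuated against ground roots ran from 1 to 4. The latter was 4 without ground replicate 2 or first-actuated replicate 2 and 3 without ground replicate 1. For last-actuated against ground roots it was 3 without ground replicate 1, 2 without last-actuated replicate 1 and 0 without any other array.

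**Figure D3:**
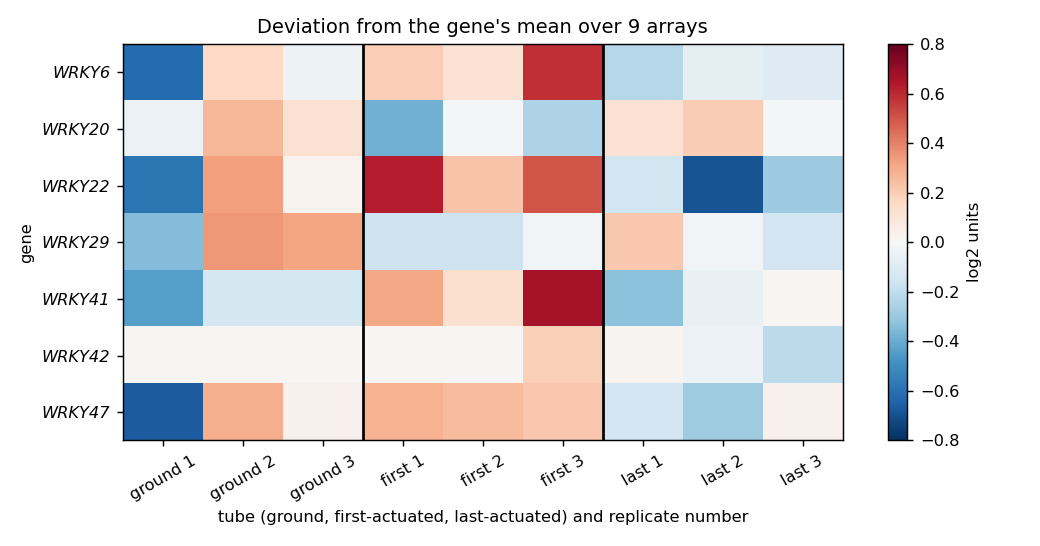
Deviation of each WRKY gene (y axis) from its own mean over the 9 arrays, in log2 units by colour, for each array (x axis) in the ground, first-actuated and last-actuated tubes. Ground replicate 1 has a median deviation of -0.44, against 0.27 for ground replicate 2.

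The spread within the ground tube was shared by the genes. For all 6 members whose ground values were not tied, ground replicate 1 was lowest, replicate 3 was between and replicate 2 was highest. Of all genes tested, 19.3% had that order. That share includes genes with tied values, which cannot show the order, and 61.4% of genes had an equal value on some pair of the 9 arrays. It was not computed for untied genes of like level, so the order cannot be called particular to the members. The median deviation of the 7 members from their means was -0.44 on ground replicate 1, 0.27 on ground replicate 2 and 0.027 on ground replicate 3, while the median over all genes was -0.028, -0.010 and -0.0035 on these arrays. The arrays take the same order on the first principal component given above. Pooled over tubes, the SD of an array around its tube mean was 0.33 for WRKY22, 0.30 for WRKY47, 0.28 for WRKY6, 0.26 for WRKY29 and 0.21 for WRKY41, against a median of 0.18 over all genes. It was 0.15 for WRKY20. The mean levels of WRKY6, WRKY20, WRKY22, WRKY29 and WRKY47 were above those of 85.8% to 98.3% of all genes. That median SD and the share of 19.3% thus come mostly from genes of lower level.

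Few genes of the pathways that meet the WRKY factors could be read. Of 17 listed MAP kinase cascade and pattern receptor genes 2 were measured, of 10 VQ-motif and other WRKY partners 2, of 15 salicylic acid and defence genes 1 and of 17 jasmonate and ethylene genes 1. None of the 11 camalexin and indole glucosinolate, 8 phosphate supply or 7 senescence genes was measured. EFR, the receptor of bacterial elongation factor Tu, and BIK1, a kinase that relays signals from pattern receptors, were not called (0 of 2 in each comparison by limma, with 0 at an unadjusted p under 0.05). In first-actuated against ground roots their log2 differences were 0.14 and 0.079. EFR had tube means of 1.69 to 1.83, below the median gene mean of 2.15, so the size of its differences is uncertain. SAG101, a partner of the immune regulator EDS1, and EIN3, the main transcription factor of ethylene signalling, had log2 differences of 0.0029 and -0.10 in that comparison (adjusted p = 0.998 and 0.752).

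In the list of WRKY partners, 1 of 2 measured genes rose in first-actuated against ground roots, where 4.69% of all genes were called, and the same gene was called between the flight tubes, where 2.24% were. This was AT1G78410, for which the gene table gives no symbol. Its log2 levels were 1.16, 1.76 and 1.69 on ground replicates 1, 2 and 3, 2.78, 2.82 and 2.39 on the first-actuated arrays, and 1.85, 1.50 and 1.85 on the last-actuated arrays. Last-actuated replicates 1 and 3 shared every deposited digit. The first-actuated arrays stood above all other arrays, and the ground and last-actuated arrays overlapped. It rose from 1.54 ± 0.33 (SD, n = 3) to 2.66 ± 0.24, a 2.18-fold rise (log2 difference 1.12, limma adjusted p = 0.00744). Over the fits that leave out an array, the rise ran from 0.94, without ground replicate 1, to 1.26. The gene fell from the first-actuated to the last-actuated tube by 0.93 (limma adjusted p = 0.0327). The fall was no longer called without ground replicate 3 or any 1 of the first-actuated or last-actuated arrays (adjusted p = 0.0558 to 0.136). IKU1, a VQ-motif protein gene that acts in endosperm growth, was the other measured partner, with log2 differences of -0.11 in both of these comparisons (adjusted p = 0.709 and 0.768). The levels of AT1G78410 in the ground and last-actuated tubes were below that median of 2.15, so the size of its change is uncertain.

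Of 4 listed root hair markers 2 were measured, and 1 was called. EXPA18, an expansin gene of root hairs, had a log2 difference of 0.96 in first-actuated against ground roots (limma adjusted p = 0.0203) and of -0.90 in last-actuated against first-actuated roots (adjusted p = 0.0454). In first-actuated against ground roots 4 of 9 fits that leave out an array lost the call, those without replicate 1 or 3 of either tube (adjusted p = 0.0690 to 0.0861). The second call was lost in all 8 fits that kept ground replicate 2 (adjusted p = 0.0515 to 0.154). EXPA7, another root hair expansin gene, went the opposite way without being called. Its log2 difference was -0.63 in first-actuated against ground roots (adjusted p = 0.0685) and 0.44 in last-actuated against first-actuated roots (adjusted p = 0.283), both at an unadjusted p under 0.05. The summed level of both markers, as a log2 value, was 5.40 to 5.79 in the ground tube, 5.45 to 6.08 in the first-actuated tube and 5.42 to 5.61 in the last-actuated tube. In whole roots, fewer cells of a type and less RNA per cell cannot be told apart, and the part of root hair cells in the WRKY values was not tested.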

How the data were processed

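Whole-root RNA from 9 samples was labelled with biotin and put on AraGene 1.0 ST arrays, which have 1 colour. The authors deposited log2 expression values. Per the submitters' processing notes, R 4.0.0 was used with RMA, oligo and limma, on the build TAIR10; the role of each tool is not stated there. The values ran from 0.0515 to 13.8, with array medians of 2.09 to 2.15. No detection calls were available, and the number of arrays limits the precision.

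Of 38408 probe sets, 16722 listed 1 gene, 759 several and 20927 were not listed in the naming table. Symbols were updated through the Entrez identifier where the gene table held it (16574 of 16722). The table is of another release than TAIR10, so it served for names alone. The 16722 gave 16550 genes, and for the 146 with several probe sets the one of highest mean was taken. The 4 probe sets that list a WRKY gene beside another gene were left out.

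The 3 tubes were fitted in 1 model with limma 3.58.1 in R 4.3.3 (statmod 1.5.0 loaded), with empirical Bayes moderation. There were 6 residual and 3.89 prior degrees of freedom. P-values were adjusted by Benjamini-Hochberg over all 16550 genes. The 95% intervals use the moderated errors. Figures were drawn with Python 3.11.15, pandas 2.3.3 and matplotlib 3.10.9. The pipeline was tested on simulated data. Of the planted log2 differences, 11.9% were recovered at a size of 0.5, 77.6% at 1 and 100% at 2. Alternatives were 2 normalizations, 2 filters on low levels, trended and robust moderation, a replicate block, array weights, a threshold of 0.01, probe sets of a gene averaged, every probe set tested, leaving out each array, and fits to 2 groups.

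The members, lists and tests were chosen with earlier results of these data known. The rule for named genes gives full values to members called anywhere and then to those with the smallest F-test p until 12 are reached, which here covers all 7. From each pathway list up to 3 measured genes are named, called ones first.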

Additional observations from a re-analysis of the deposited data

How the results depend on the processing

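The count of WRKY genes called was 0 in every setting tried but 3. For last-actuated against first-actuated roots it was 1 with array weights (WRKY22, adjusted p = 0.0400) and 0 to 1 without each array in turn (1, WRKY22, without ground replicate 1). For first-actuated against ground roots it was 1 with the replicate block (WRKY41, adjusted p = 0.0451). The replicate numbers were not taken as pairs, since same-numbered arrays of different tubes had correlations of their deviations of -0.11 to 0.070, with 0 of 9 above 0.1. In last-actuated against ground roots, fits without each array in turn changed the sign of uncalled log2 differences, with ranges of -0.19 to 0.19 for WRKY6, -0.092 to 0.063 for WRKY20, -0.32 to 0.029 for WRKY29, -0.30 to 0.18 for WRKY47 and -0.054 to 0.20 for EXPA18. The causes were not tested. WRKY41, WRKY42 and AT1G78410 have means below the median gene mean and gave no value with genes above the median. The rise of AT1G78410 in first-actuated roots kept its call in all 20 alternatives that gave a value (adjusted p = 0.00553 to 0.0436). Its fall in the last-actuated tube lost its call in 10 of 20, among them the replicate block (0.0709) and all probe sets tested (0.0628). With 3 arrays a tube and no detection calls, intervals of up to about 1 log2 unit in width limit what can be said of members not called.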
